A study of Mus musculus with 12 samples.

Results

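Hand2, Shox2 and Alx4 are transcription factor genes of the early limb bud, and the chromatin around them was read here from the peak lists of a ChIP-seq study of the mouse forelimb. A window was set around each gene on mm9, from 59.3 to 60.1 Mb of chromosome 8 for Hand2, from 66.4 to 67.1 Mb of chromosome 3 for Shox2 and from 93.3 to 93.7 Mb of chromosome 2 for Alx4. Every peak of the 7 deposited lists that overlapped a window was kept. This gave 275 of 189536 peaks, of which 111 lay in the Hand2 window, 70 in the Shox2 window and 94 in the Alx4 window. Within a window, peaks were kept by position alone.

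The E11.5 libraries were made from distal forelimb of mixed C57BL/6 - CD1 mice, by their titles; the extraction protocol names "ZAP cells" instead, and which cells went in could not be settled from the labels. Wild-type chromatin was immunoprecipitated for HOXA13, HOXD13, H3K27ac and H3K27me3. Hoxa13-/-;Hoxd13-/- chromatin, from embryos called the double mutant here, was profiled for H3K27ac and H3K27me3. The Hoxa13 allele is disrupted by a neomycin cassette within the coding sequence, and the Hoxd13 allele by lacZ in its first exon. The E10.5 library is H3K27me3 from forelimb buds of CD1 mice, made with another supplier's antibody. It differs from the E11.5 libraries in stage, strain, antibody and, by the titles, part of the limb, and these cannot be told apart. Each group holds 1 library, so no difference between groups has a replicate check and none was tested across embryos.

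Hand2 is a basic helix-loop-helix factor of the posterior limb bud that acts upstream of Shh. Shox2 is a homeodomain factor needed for the proximal limb, above all the upper arm. Alx4 is a paired-like homeodomain factor of the anterior limb bud, where it restrains Shh expression. HOXA13 and HOXD13, together called HOX13, are the homeodomain factors of the distal limb bud from which the digits form. H3K27ac marks active promoters and enhancers. H3K27me3 is laid down by Polycomb repressive complex 2 over silent developmental genes, and in a mixed tissue both marks can be called at one place when different cells carry them.

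Sequence of the peaks themselves is not shown, because the reference genome at hand is GRCm38 and the peaks are on mm9. For the same reason no peak was assigned to an exon, intron or promoter. The RefSeq promoters of Hand2 and Shox2 are shown instead, as the sequences whose genes give the windows their names. Of the 3 genes, 2 had an entry. The capitals mark CAATAAA on either strand, a core that HOX13 homeodomains prefer, and each run holds the 250 bases before the annotated start, on GRCm38.p6.
Hand2, chr8:57320733-57320982, plus strand: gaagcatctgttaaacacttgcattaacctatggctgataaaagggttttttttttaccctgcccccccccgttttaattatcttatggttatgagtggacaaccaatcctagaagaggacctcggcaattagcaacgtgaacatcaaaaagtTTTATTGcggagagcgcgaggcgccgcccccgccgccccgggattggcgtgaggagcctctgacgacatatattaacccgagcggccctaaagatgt
Shox2, chr3:66981772-66982021, minus strand: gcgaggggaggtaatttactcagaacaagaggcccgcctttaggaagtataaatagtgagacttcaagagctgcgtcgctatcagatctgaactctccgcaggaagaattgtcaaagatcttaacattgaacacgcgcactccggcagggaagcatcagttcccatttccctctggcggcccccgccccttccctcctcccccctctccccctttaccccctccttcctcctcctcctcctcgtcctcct
The Hand2 run holds 1 match, which begins 97 bases before the start and reads TTTATTG on the shown strand. The Shox2 run holds none. Among 32851 RefSeq promoters of the same length 4.20% hold a match, and a match is a run of letters, not evidence of binding. The protein-coding neighbours in the RefSeq table of GRCm38 are Fbxo8 and Scrg1 for Hand2, Ptx3 and Rsrc1 for Shox2, and Cd82 and Ext2 for Alx4, so a peak in a window need not act on the gene that names it.

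The lists hold between 17556 and 38115 peaks, with a score per peak that starts at 50 and in which many peaks tie at 3100. A higher score is a stronger call within 1 list, and scores are not compared between lists. The 5 input libraries include none titled for H3K27me3 at E11.5, in either genotype. What those lists were called against cannot be told from the titles. Read depth is unknown. The wild-type H3K27me3 list stands apart on the X chromosome, with 9251 peaks there against 385 in the double mutant, and the cause was not tested. The 3 windows are autosomal, and H3K27me3 is therefore set against autosomes throughout. Over all autosomes, double-mutant H3K27me3 covered 0.807 times the length of wild-type H3K27me3, and double-mutant H3K27ac covered 1.25 times that of wild type.

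All 3 windows held more HOX13 binding per Mb than the autosomes as a whole. A site is the merged stretch of overlapping peaks of the factors, and sites numbered 34 in the Hand2 window, 19 in the Shox2 window and 10 in the Alx4 window. This is 42.5, 27.1 and 25.0 sites per Mb, against 13.5 per Mb over the autosomes. Peaks of both factors made up 20 of 34 sites at Hand2, 17 of 19 at Shox2 and 6 of 10 at Alx4, beside 58.1% of all autosomal sites. The Hand2 window held 5 sites of HOXD13 without HOXA13, and the other 2 windows held none, beside 8.73% of autosomal sites. HOXA13 chromatin was also fixed with disuccinimidyl glutarate, so the lengths of the factor lists are not compared.

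The Shox2 window holds the highest-scoring site of the 3 loci, at chr3:66873555-66875872. Its HOXA13 score was 3076, rank 82 of 31044 peaks, and its HOXD13 score was 3212, rank 3 of 22655. The next Shox2 sites by HOXA13 score were chr3:66542320-66545004 (HOXA13 1964, HOXD13 1465) and chr3:67052053-67053500 (HOXA13 1210, HOXD13 484). These were followed by chr3:66779789-66782348 with a HOXA13 score of 573 and chr3:67092283-67093906 with 525. All but the fourth of these 5 lie outside the broad H3K27me3 domain of the locus.

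In the Hand2 window the site at chr8:59572404-59574817 scored highest, with 1616 for HOXA13 and 2484 for HOXD13. Next came chr8:59488050-59490272 (HOXA13 1472, HOXD13 1364), chr8:59798209-59800555 (HOXA13 1453, HOXD13 1401), chr8:59611817-59614330 (HOXA13 1213, HOXD13 964) and chr8:59530616-59532967 (HOXA13 1186, HOXD13 829). Of these, 1 is inside the Hand2 H3K27me3 domain and 4 lie together in the H3K27me3-free stretch on its lower-coordinate side.

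Scores at Alx4 were lower than at the strongest sites of the other 2 loci. The highest HOXA13 scores were 795 at chr2:93377278-93378701 and 465 at chr2:93427061-93428963, with HOXD13 scores of 217 and 521. The next 3 sites had HOXA13 scores of 317 at chr2:93612413-93613728, 315 at chr2:93464812-93465964 and 232 at chr2:93572236-93573689.

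**Figure D1:**
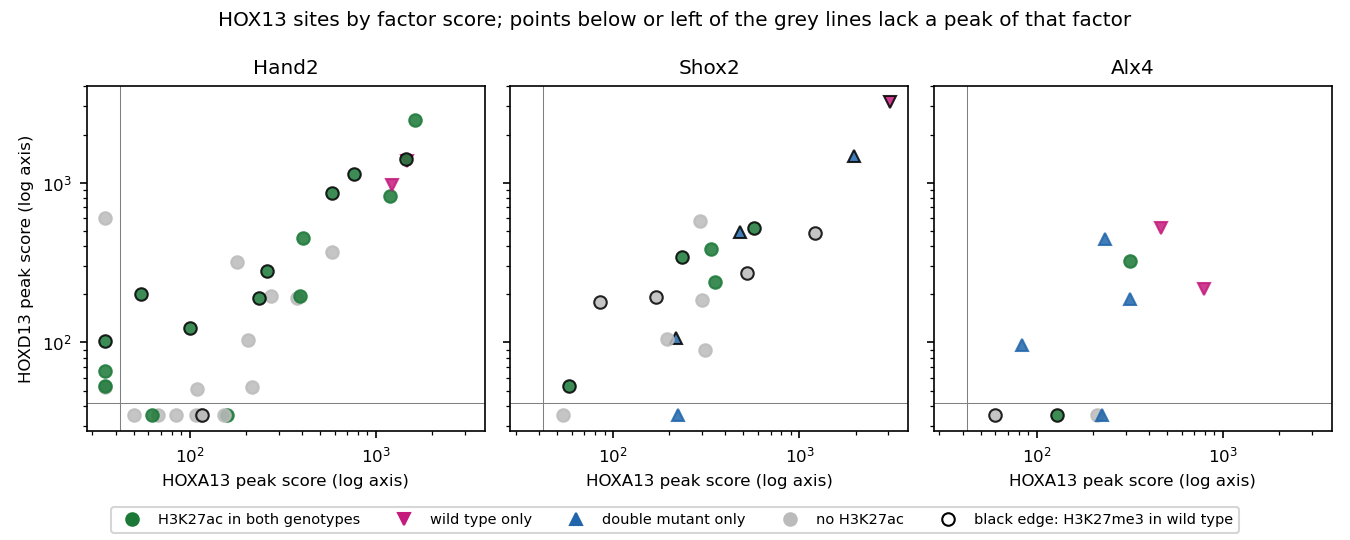
Each point is 1 HOX13 site, plotted by its HOXA13 peak score (x, log axis) and HOXD13 peak score (y, log axis). Sites without a peak of a factor sit at the margin beyond the grey line, and colours and shapes give the H3K27ac calls in the 2 genotypes; a black edge marks H3K27me3 in wild type. At Shox2 the site at the upper right, with scores of 3076 and 3212, has H3K27ac in wild type only, and 4 sites have it in the double mutant only; at Hand2 no site has it in the double mutant only.

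The covered length of both marks was set side by side for the genotypes at each locus. At Hand2, H3K27ac covered 63.2 kb in wild type and 58.2 kb in the double mutant, a ratio of 0.920. At Shox2 it covered 18.0 kb and 24.2 kb, a ratio of 1.35, and at Alx4 24.8 kb and 35.0 kb, a ratio of 1.41. The H3K27ac ratio over all autosomes was 1.25. H3K27me3 covered 58.5 kb in wild type and 57.1 kb in the double mutant at Hand2, and 53.6 kb and 47.6 kb at Alx4. At Shox2 it covered 66.2 kb in wild type and 18.3 kb in the double mutant, a ratio of 0.276 against 0.807 over all autosomes. In E10.5 forelimb H3K27me3 covered 50.6 kb at Hand2, 12.5 kb at Shox2 and 54.7 kb at Alx4. In bulk chromatin, fewer cells with a mark and less of the mark per cell cannot be told apart.

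**Figure D2:**
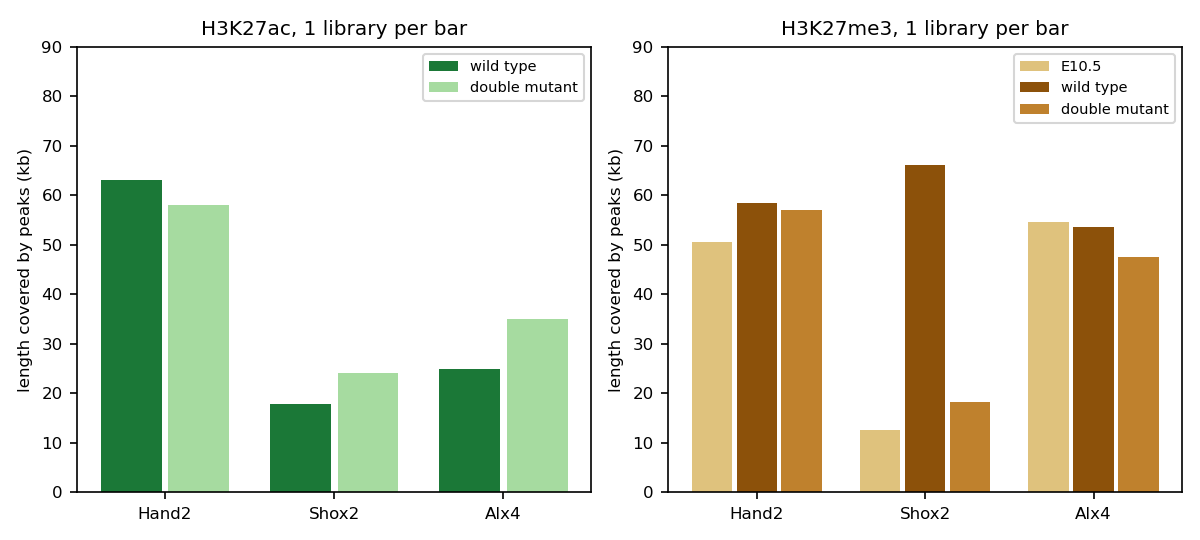
Bars give the length of each window covered by called peaks (kb), 1 library per bar, for H3K27ac on the left and H3K27me3 on the right. Wild-type H3K27me3 at Shox2 stands at 66.2 kb, against 12.5 kb at E10.5 and 18.3 kb in the double mutant, while at Hand2 and Alx4 the 3 H3K27me3 bars lie close together.

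The Hand2 locus carried a broad H3K27me3 domain that was called at E10.5 and in both E11.5 genotypes, with H3K27ac over most of it in both genotypes. In wild type, H3K27me3 formed 1 peak of 49.8 kb at chr8:59786568-59836337. Double-mutant peaks covered 99.6% of it and E10.5 peaks 87.5%. H3K27ac covered 77.7% of the same domain in wild-type and 77.4% in double-mutant chromatin. The widest H3K27ac peak of the window lies in it, 27.8 kb at chr8:59789826-59817641 in wild type; in the double mutant the same ground held peaks of 18.6 kb and 8.53 kb. All 8 HOX13 sites in the domain overlapped both marks in both genotypes. No H3K27me3 peak of the window was called in 1 E11.5 genotype only: 0 of 6 wild-type peaks lacked a double-mutant peak, where 30.4% of autosomal wild-type peaks did, and 0 of 9 double-mutant peaks lacked a wild-type peak, where 15.8% did. The first count depends on weak calls: with peaks scoring under 100 dropped, 2 of the 6 wild-type peaks (33.3%) lacked a double-mutant peak. All 5 E10.5 peaks overlapped a wild-type peak. After the domain, the widest wild-type H3K27me3 peaks were chr8:59888152-59891212 (3.06 kb) and chr8:59402041-59403632 (1.59 kb). In the double mutant the widest were chr8:59787713-59821168 (33.5 kb) and chr8:59821183-59835528 (14.3 kb), both in the domain, and chr8:59905903-59908132 (2.23 kb). At E10.5 they were chr8:59801022-59832808 (31.8 kb) and chr8:59789550-59799794 (10.2 kb), also in the domain, and chr8:59886282-59891525 (5.24 kb).

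H3K27ac was called lost at Hand2 more often than gained, and all 6 of these calls lay outside the domain. A peak of wild type is lost where the double mutant has no peak overlapping it, and gained is the reverse. Lost peaks numbered 5 of 20 (25.0%, Wilson 95% interval 11.2 to 46.9%), beside 15.1% of the whole list. Gained peaks numbered 1 of 16 (6.25%, 1.11 to 28.3%), beside 30.1%. These intervals reflect only how many peaks were counted; the first includes the share of the whole list. Under the alternatives the lost share ran from 23.1% to 40.0% and the gained share from 6.2% to 15.4%. The gained peak was chr8:59914052-59915622 (score 240), which overlaps no HOX13 site. Among kept peaks, those with the highest scores beyond the domain, at chr8:59964534-59967793 and chr8:59988913-59992945, reached 3100 in both genotypes, as did peaks within the domain.

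The lost peaks fell mainly in 1 stretch. Between the H3K27me3 peak ending at 59421938 and the domain starting at 59786568 lie 365 kb with no H3K27me3 peak in any of the 3 lists; this stretch was singled out after its values were seen. It holds 14 HOX13 sites, 8 of them of both factors. Wild type had 6 H3K27ac peaks there covering 8.46 kb, and the double mutant 2 covering 2.41 kb. The 4 lost peaks were chr8:59488092-59488991 (score 63.0), chr8:59589961-59590841 (74.3), chr8:59592158-59593420 (116) and chr8:59612596-59613822 (82.0). The first lies on the site with HOXA13 score 1472 and the last on the site with HOXA13 score 1213, whereas the middle pair overlaps no site. The fifth lost peak, chr8:59876820-59877653 (score 54.2), lies beyond the domain and is unbound. Over the window, 2 of 12 bound wild-type H3K27ac peaks were lost (16.7%), beside 21.3% of bound autosomal peaks. Of unbound peaks 3 of 8 were lost (37.5%), beside 11.2%. The 5 lost peaks are weak calls, since at least 74.8% of the wild-type list scored higher than each of them. The 2 H3K27ac peaks of the stretch that remained were narrower in the double mutant. The peak on the highest-scoring Hand2 site, chr8:59572542-59574813, was 2272 bp wide in wild type but 1152 bp in the mutant. The peak at chr8:59530849-59532768 measured 1920 bp and 1260 bp.

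**Figure D3:**
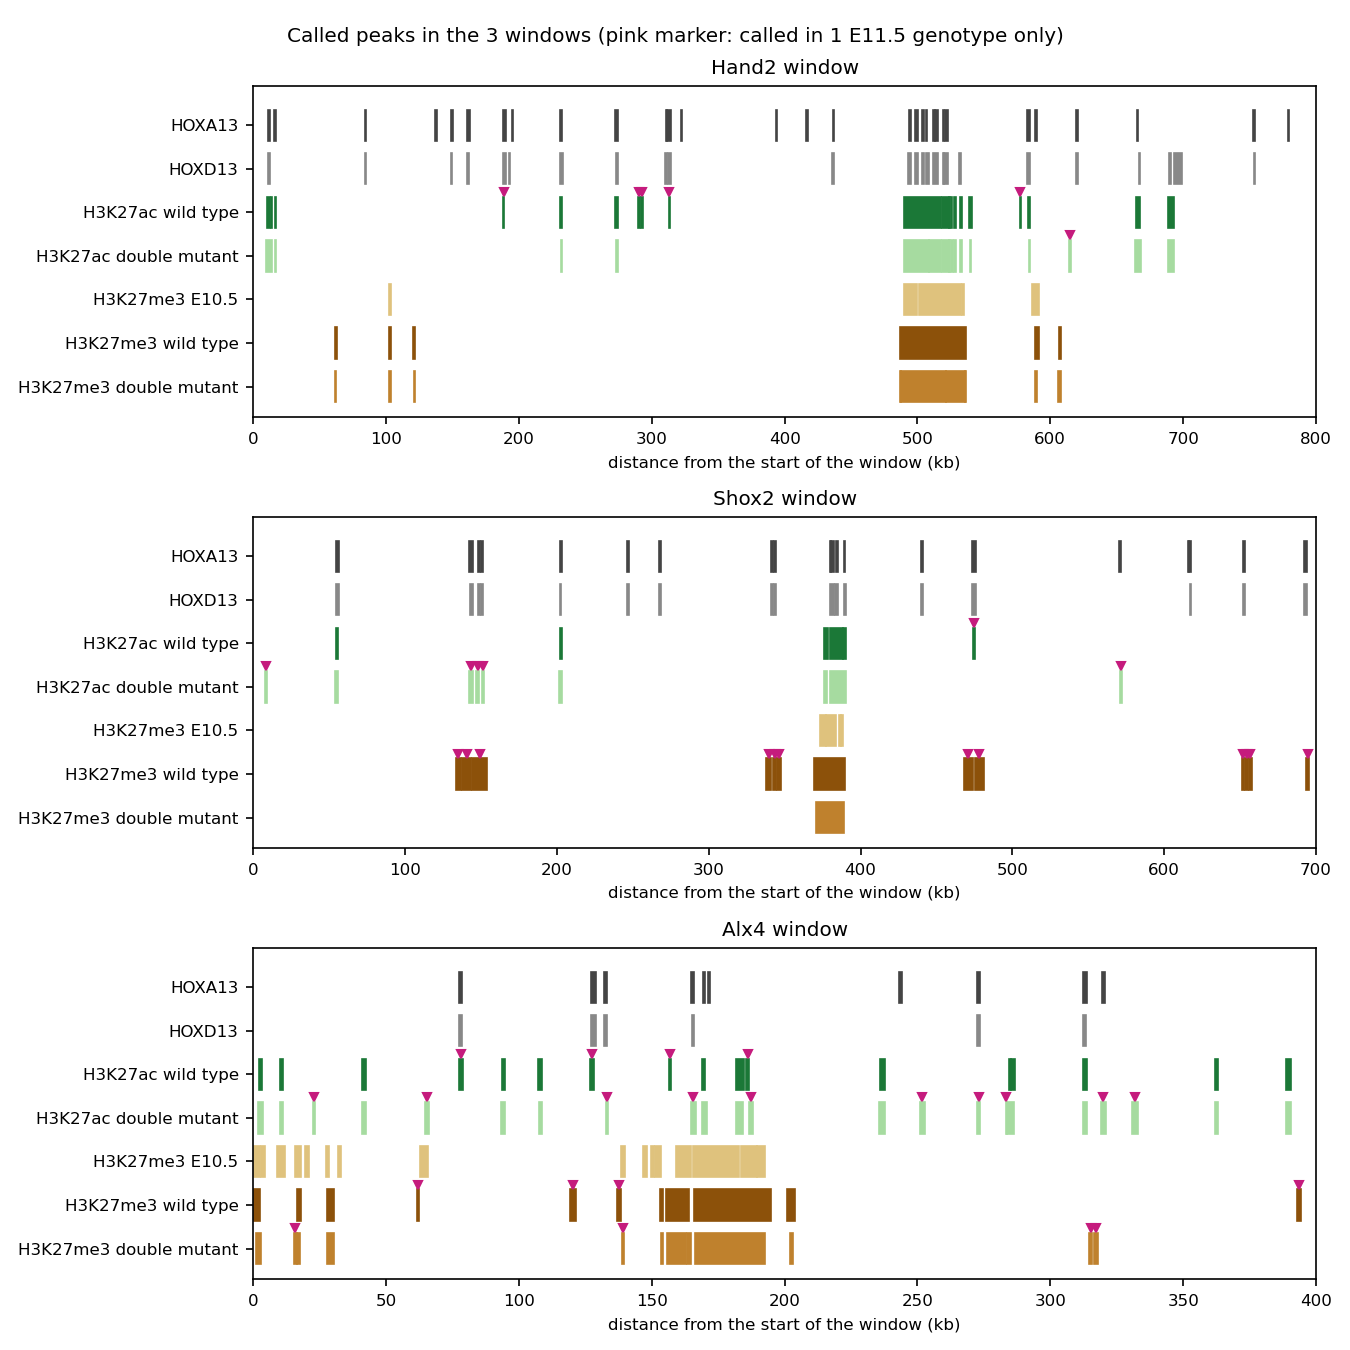
Called peaks of the 7 lists in the Hand2, Shox2 and Alx4 windows, drawn to scale by distance from the start of the window (kb); each row is 1 library, HOXA13 and HOXD13 being from wild type, and pink markers show histone peaks called in 1 E11.5 genotype only. At Hand2 the broad domain is present in the 3 H3K27me3 rows, and at Shox2 12 of 13 wild-type H3K27me3 peaks carry a marker.

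Most wild-type H3K27me3 peaks at Shox2 had no counterpart in the double mutant. The domain at chr3:66769435-66789528 (20.1 kb, score 3100) was called in every H3K27me3 list. It was the only H3K27me3 peak of the double mutant in the window, at 18.3 kb, and it held all 4 E10.5 peaks, the widest being chr3:66777559-66784002 (6.44 kb), chr3:66773449-66776973 (3.53 kb) and chr3:66787191-66788718 (1.53 kb). H3K27ac was called over it in both genotypes, led by chr3:66779613-66788336 in wild type (8.72 kb, score 3100) and chr3:66779955-66790629 in the double mutant (10.7 kb, score 3100). The 3 HOX13 sites there carried both marks in either genotype, which largely follows from their lying in a domain where both were called. All the other 12 wild-type H3K27me3 peaks were called in wild type only, which is 12 of 13 (92.3%, 66.7 to 98.6%) beside 30.4% of autosomal peaks. They cover 46.1 kb, or 69.6% of wild-type H3K27me3 in the window, and 0 of the 12 overlapped an E10.5 peak, beside 18.6% of autosomal H3K27me3 peaks called in wild type only.

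Most of these wild-type-only H3K27me3 peaks overlapped a HOX13 site. With peaks less than 2000 bp apart joined, the 12 peaks formed 5 stretches, and each of the 5 overlapped at least 1 HOX13 site, 8 sites in all. No autosomal share was computed for joined stretches, which also take in sites between peaks. The window is also richer in sites than the autosomes, at 27.1 against 13.5 per Mb. All 8 sites in the stretches carried peaks of both factors, as did 17 of 19 sites of the whole window and 58.1% of autosomal sites. By single peaks, 9 of the 12 overlapped a site (75.0%, 46.8 to 91.1%), against 11.8% of the 5968 autosomal H3K27me3 peaks called in wild type only. Scores were not matched here. Among autosomal wild-type-only peaks with a score of 1000 or more, HOX13 bound 69.8%, but only 4 of the 12 reach that score. The 1 wild-type peak of the window called in both genotypes was bound too. Seen from the sites, 8 of 19 at Shox2 had H3K27me3 in wild type and not in the double mutant, against 2.85% of autosomal sites. At Hand2 this held for 0 of 34 sites and at Alx4 for 0 of 10.

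The stretch with the most H3K27me3 outside the domain is chr3:66533531-66554199, 20.7 kb long. It consists of peaks of 3.25 kb (score 391), 5.84 kb (score 3100) and 10.1 kb (score 3100), and no H3K27ac was called in it in wild type. In the double mutant no H3K27me3 was called, and 3 gained H3K27ac peaks lay there instead. They were chr3:66542134-66544641 (score 335), chr3:66546932-66548514 (score 157) and chr3:66550462-66551928 (score 214). Each overlaps its own site of both factors; the HOXA13 scores of these sites were 1964, 478 and 217. Of 11393 autosomal gained H3K27ac peaks, 71 (0.623%) were bound and overlapped H3K27me3 of wild type only, and 3 of those 71 are these peaks.

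The strongest HOX13 site of the 3 loci lies in the second stretch by H3K27me3 score, chr3:66868023-66881238. Here H3K27me3 peaks of 6.05 kb (score 1777) and 6.06 kb (score 2993) are parted by 1107 bp, and the HOX13 site spans that gap. A wild-type H3K27ac peak, chr3:66874207-66875675 (score 72.4), begins in the gap and runs into the second of them. It was the only lost H3K27ac peak of the window, 1 of 6 (16.7%, 3.01 to 56.4%), beside 15.1% of the whole list. In the double mutant neither mark was called at this site, and no H3K27me3 was called in the stretch at E10.5.

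The remaining 3 stretches had H3K27me3 in wild type and neither mark in the double mutant at their sites. The first, chr3:66737841-66747512, held peaks with scores of 755, 428 and 277 and 2 sites with HOXA13 scores of 170 and 84.6. The second, chr3:67051223-67057535, held peaks with scores of 77.1, 335 and 84.2 and the site with HOXA13 score 1210. The third was the single peak chr3:67093741-67095319 (score 183), at the site with HOXA13 score 525. The other 8 Shox2 sites had no H3K27me3 in either E11.5 genotype. Of these, 5 had no H3K27ac either, and chr3:66454548-66456219 (HOXA13 333) and chr3:66601740-66603099 (HOXA13 354) had H3K27ac in both genotypes.

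**Figure D4:**
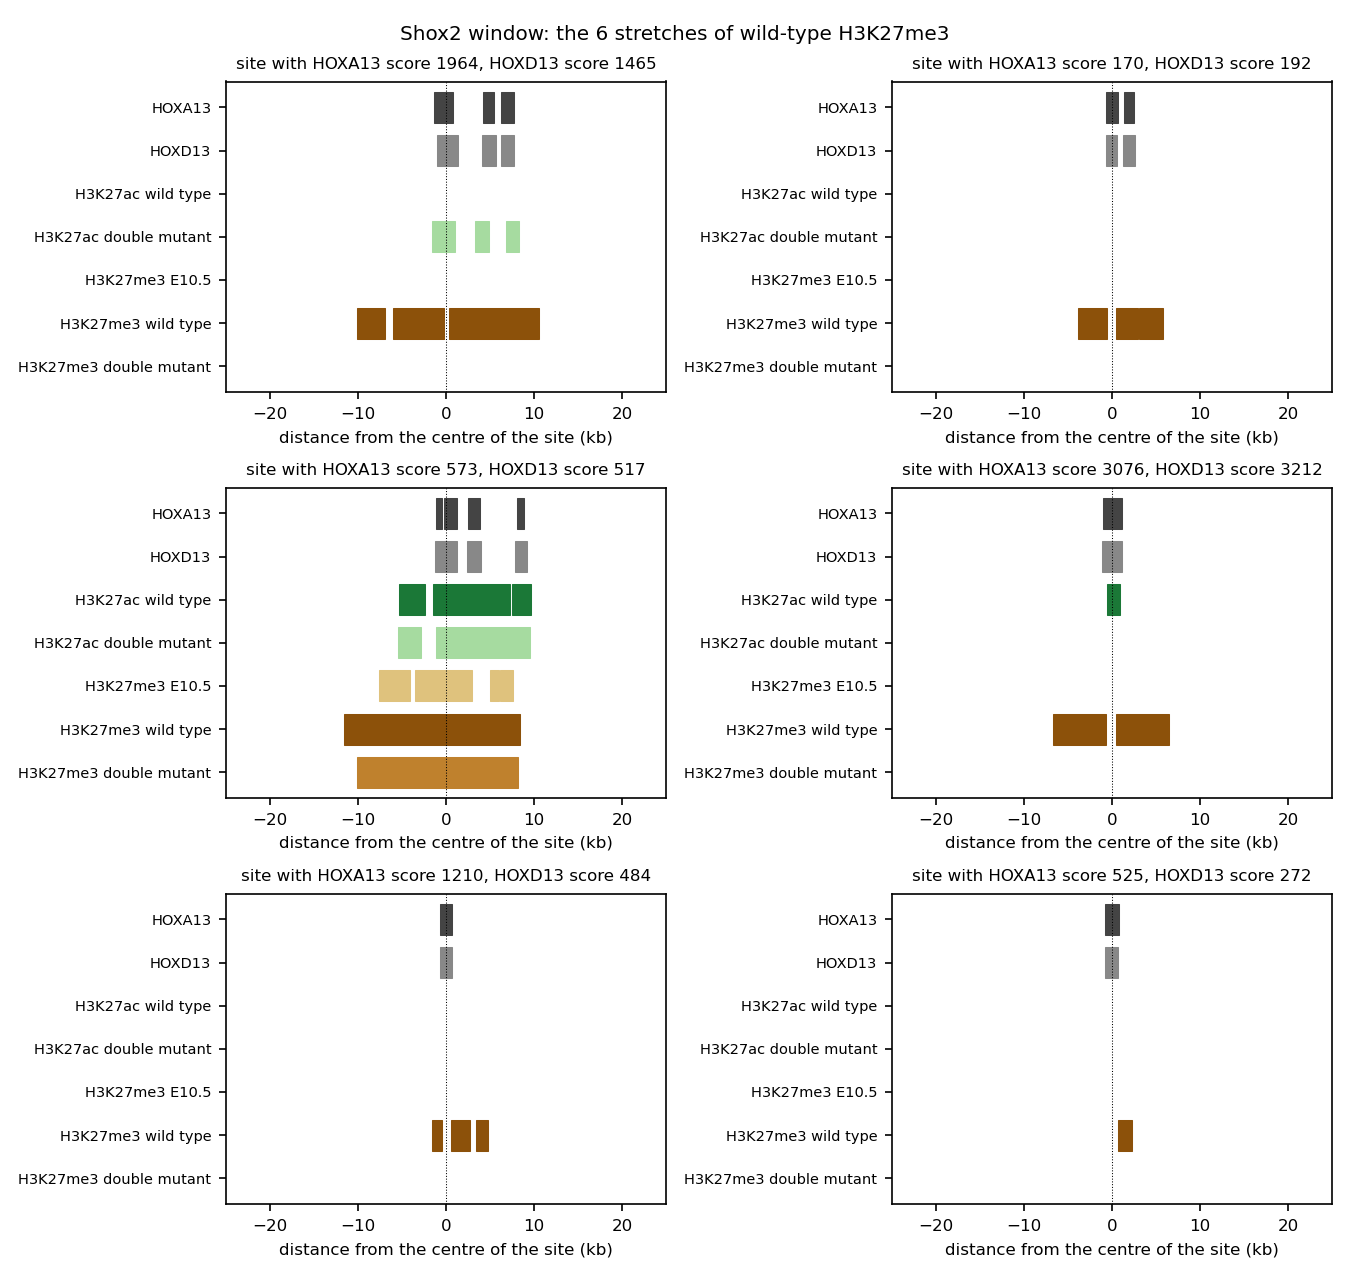
Peaks of the 7 lists around the 6 stretches of wild-type H3K27me3 in the Shox2 window, by distance from the centre of the stretch's HOX13 site with the highest HOXA13 score (kb). Only peaks that overlap the window are drawn, so the panel of the last stretch holds no data past 67.1 Mb. In 5 of the 6 panels H3K27me3 is called in wild type and in neither the double mutant nor E10.5; in the upper left panel the double mutant has 3 H3K27ac peaks on the HOX13 sites.

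H3K27ac gained at Shox2 was called at 5 of 9 double-mutant peaks (55.6%, 26.7 to 81.1%), beside 30.1% of the whole list. Besides the 3 in the H3K27me3 stretch, these were chr3:66971200-66972078 (score 71.4), which overlaps a HOXA13 site with score 223, and the unbound chr3:66407854-66408821 (score 53.2). Among HOX13-bound double-mutant peaks, 4 of 7 were gained at Shox2, 4 of 6 at Alx4 and 0 of 11 at Hand2, beside 13.4% of bound autosomal peaks. Among unbound ones, 1 of 2 were gained at Shox2, 6 of 16 at Alx4 and 1 of 5 at Hand2, beside 37.5% of unbound autosomal peaks. The next H3K27ac peaks of the window by score were chr3:66788597-66790712 (score 2362) and chr3:66775719-66778686 (score 579) in wild type and chr3:66775665-66778219 (score 681) in the double mutant, all overlapping the H3K27me3 domain.

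At Alx4 the H3K27me3 domain stayed and H3K27ac was called both lost and gained at HOX13 sites. The domain consists of a wild-type peak of 28.8 kb at chr2:93466079-93494855 and 1 of 8.81 kb at chr2:93455332-93464141, both with a score of 3100. Double-mutant peaks covered 91.5% and 95.7% of them, led by chr2:93466415-93492752 (26.3 kb) and chr2:93455570-93463048 (7.48 kb), and E10.5 peaks 89.2% and 58.3%, led by chr2:93465546-93482942 (17.4 kb), chr2:93483570-93489546 (5.98 kb) and chr2:93459008-93464933 (5.93 kb). The next widest were chr2:93500910-93503768 (2.86 kb) in wild type and chr2:93327658-93330541 (2.88 kb) in the double mutant, and both were called in both genotypes. Wild-type-only H3K27me3 peaks numbered 4 of 11 (36.4%, 15.2 to 64.6%), beside 30.4% of autosomal peaks. HOX13 bound 0 of the 4 (0.0 to 49.0%), an interval that includes the 11.8% of autosomal wild-type-only peaks that were bound. The 4 peaks were chr2:93361536-93362266 (score 52.0), chr2:93419303-93421400 (301), chr2:93436983-93438499 (92.0) and chr2:93692877-93694215 (128). Double-mutant-only peaks numbered 4 of 12 (33.3%, 13.8 to 60.9%), beside 15.8%, at chr2:93315399-93316384 (94.7), chr2:93438631-93439544 (82.4), chr2:93614657-93615876 (120) and chr2:93616540-93617878 (78.3). All but 1 of these calls scored below 150. With peaks scoring under 100 dropped, chr2:93419303-93421400 and chr2:93692877-93694215 kept the wild-type-only call, and chr2:93614657-93615876 the double-mutant-only call. The peak chr2:93500910-93503768 then became wild type only, because the double-mutant peak overlapping it scored 81.25.

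Lost H3K27ac peaks at Alx4 numbered 4 of 17 (23.5%, 9.56 to 47.3%), beside 15.1% of the whole list. Of these, 2 lay on the 2 sites with the highest HOXA13 scores of the window. They were chr2:93377562-93379032 (score 379) on the site with HOXA13 score 795, and chr2:93426803-93428385 (score 138) on the site with HOXA13 score 465. Neither mark was called at either site in the double mutant. The other lost peaks, chr2:93456340-93457394 (78.7) and chr2:93485450-93486640 (136), lay within the H3K27me3 domain and overlapped no site. HOX13 thus bound 2 of the 4 lost peaks, beside 2542 of 4712 lost peaks over all autosomes. Among bound wild-type peaks 2 of 4 were lost (50.0%, 15.0 to 85.0%), beside 21.3% of bound autosomal peaks. Among unbound ones 2 of 13 were lost (15.4%), beside 11.2%.

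Gained H3K27ac peaks at Alx4 numbered 10 of 22 (45.5%, 26.9 to 65.3%), beside 30.1% of the whole list. The 5 with the highest scores were chr2:93630922-93633041 (372), chr2:93486768-93488101 (173), chr2:93464845-93466517 (150), chr2:93619125-93620799 (141) and chr2:93364747-93366154 (124). HOX13 bound 4 of the 10: the third and the fourth of these, and chr2:93572440-93573693 (101) and chr2:93432826-93433612 (67.3). Over all autosomes HOX13 bound 1476 of 11393 gained peaks. The peak with a score of 67.3 left the list at a score of 100 or more and at equal list lengths. The peak at chr2:93464845-93466517 lies where the 2 H3K27me3 peaks of the domain are parted, on a site with HOXA13 score 315 that is 114 bp from the nearest wild-type H3K27me3. Sites with H3K27ac in the double mutant and not in wild type were thus 4 of 10 at Alx4 and 4 of 19 at Shox2 but 0 of 34 at Hand2, beside 4.39% of autosomal sites. Sites with H3K27ac in wild type and not in the double mutant were 2 of 34 at Hand2, 1 of 19 at Shox2 and 2 of 10 at Alx4, beside 7.64%. The highest-scoring H3K27ac peaks that stayed were chr2:93688676-93690586 (wild-type score 3100), chr2:93481831-93484655 (1413) and chr2:93407022-93408737 (878). In the double mutant chr2:93535554-93537790 (658) followed the first pair.

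E10.5 H3K27me3 at Alx4 reached beyond the E11.5 peaks. The window held 16 E10.5 peaks, and for 7 of them (43.8%, 23.1 to 66.8%) wild type at E11.5 had no overlapping peak, beside 13.6% of autosomal E10.5 peaks. At Hand2 this held for 0 of 5 peaks and at Shox2 for 0 of 4. The highest-scoring of the 7 were chr2:93362754-93365632 (166) and chr2:93308838-93312078 (148), and none of the 7 overlapped a double-mutant H3K27me3 peak. The first of them overlaps the gained H3K27ac peak at chr2:93364747-93366154, and the second overlaps H3K27ac of both genotypes. Of all 16 E10.5 peaks of the window, 8 lacked a double-mutant peak (50.0%, 28.0 to 72.0%), beside 19.5% of autosomal E10.5 peaks. For E10.5 peaks without a wild-type peak, the autosomal share that also lacks a double-mutant peak was not computed.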

How the data were processed

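The deposited files are 7 peak lists, 1 for each immunoprecipitated library; the 5 input libraries were not analysed here. Per the submitters' processing notes, the tools were Bowtie 0.12.7 and MACS 1.4, and the build was mm9. The deposited score of each peak is read as 10 times the negative log10 of the caller's p-value; it depends on depth and input and was used within 1 list only. Because 6 to 16 peaks of each list lie beyond where chromosome 1 ends in GRCm38, the positions were kept as mm9 and not converted. Coordinates count from 1.

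Python 3.11.15 scripts called overlap at 1 bp or more, merged HOXA13 and HOXD13 peaks into sites, and measured covered length within each window. Densities divide by an autosomal extent of 2471 Mb, taken from the last peak on each chromosome. Shares carry Wilson 95% intervals, which cover counting only. The overlap step was tested on simulated data. Peaks named are, per window, the 5 sites highest in HOXA13 score, all lost or gained peaks or the 5 highest, the 3 highest H3K27ac and 3 widest H3K27me3 peaks, and H3K27me3 peaks of 1 genotype; others named were chosen after their values were seen. The windows and lists were chosen with earlier results of these data known. Alternatives were a score of 100 or more, overlap of 50% of either peak, joining within 1000 bp, equal list lengths on autosomes, and binding by both factors.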

Additional observations from a re-analysis of the deposited data

How the results depend on the processing

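Of 99 values recomputed under the alternatives, 97 stayed within the counting interval of the share or within 1.5 times the count or length. The other 2 concern H3K27ac lost at Shox2: when peaks scoring under 100 were dropped, its only lost peak left the list, and the lost share went from 16.7% to 0.0% over all peaks and from 20.0% to 0.0% over bound peaks. Because the windows hold few peaks, the intervals are wide and this says little about stability. Of the 12 H3K27me3 peaks called in wild type only at Shox2, 10 kept that call under the 3 alternatives run on them, and the other 2 fell below a score of 100. Under all 4 alternatives the call was kept for 1 of 5 lost peaks at Hand2, 3 of 5 gained peaks at Shox2, and 2 of 4 lost and 7 of 10 gained peaks at Alx4. For H3K27me3 at Alx4 it was kept in 2 of 4 wild-type-only and 1 of 4 double-mutant-only peaks. At Hand2 the wild-type-only share went from 0.0% to 33.3% when peaks scoring under 100 were dropped, and the lost H3K27ac share from 25.0% to 40.0% at equal list lengths. The lost Alx4 peak at chr2:93485450-93486640 was no longer lost when peaks were joined, because it merged with the neighbouring wild-type peak at chr2:93481831-93484655, which overlaps a double-mutant peak. No paired analysis was possible because each group has 1 library. Read depth is unknown, so a peak missing from a list can lie just under the caller's threshold.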

Other observations

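The following patterns were noticed in the data and are given as values, with no explanation. Some narrow gaps in wild-type H3K27me3 at Shox2 were spanned by HOX13 sites. Of 7 gaps of up to 1500 bp between neighbouring wild-type H3K27me3 peaks in the window, 4 were spanned from edge to edge by a HOX13 site, with lengths of 585, 1011, 1107 and 1116 bp. Over all autosomes 409 of 4876 such gaps were spanned (8.39%, Wilson 95% interval 7.64 to 9.20%). A site is wider than most of these gaps, and neither the lengths of gaps nor the scores of sites were matched.

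High-scoring H3K27me3 peaks were seldom called in wild type only. Of 6932 autosomal wild-type peaks with a score of 1000 or more, 162 (2.34%, 2.01 to 2.72%) had no double-mutant peak, and 4 of the 162 lie in the Shox2 window. HOX13 bound 113 of the 162 (69.8%, 62.3 to 76.3%), against 1636 of the 6770 such peaks called in both genotypes (24.2%, 23.2 to 25.2%). Median widths were 5.21 kb and 5.60 kb. The score limit was chosen after the Shox2 values were seen, and the Shox2 peaks are among those counted.

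The Hand2 window holds a HOXD13 peak of 5700 bp at chr8:59993433-59999132 (score 604) with no HOXA13 peak and neither histone mark in either genotype. Only 13 of 22655 HOXD13 peaks are as wide or wider, and 10 of those 13 overlap a HOXA13 peak, beside 86.9% of the whole HOXD13 list. It begins next to the strong H3K27ac peak at chr8:59988913-59992945.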
